A study of Mus musculus with 18 samples.

Results

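The 5 CpG cytosines described here lie in the last intron of Gata3 in mouse T cells. They were chosen as all CpG cytosines in a covered interval of 247 bp and make up 5 of the 70 CpG cytosines with at least 10 reads at the mouse loci on chromosomes 2, 3 and 4. DNA came from sorted cells of 4 to 6 week old female C57/BL6 mice, with no transgene or treatment. Double positive (DP) thymocytes, sorted from thymus as CD4+ with intermediate to high CD8, precede CD4 single positive (SP) thymocytes, sorted from thymus for high CD4 and CD3 and intermediate to low CD24. Naive CD4 T cells came from pooled spleen and lymph nodes, as CD4+ cells high in CD62L, low in CD44 and without CD25. Each stage had 3 libraries of targeted bisulfite sequencing (BS-seq) and 3 of its oxidative form (oxBS-seq), from separate isolations of independent mice. Cell identity could not be checked from marker genes, since only DNA of chosen regions was sequenced. The interval was read in 15 of the 18 libraries, that is in all BS libraries and in the oxBS libraries of DP and CD4 SP. At this interval oxBS of naive CD4 cells was not analysed here.

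GATA3 is a zinc finger transcription factor that binds GATA sequences, is required for thymocytes to develop into CD4 T cells and later directs T helper 2 differentiation. Most CpG cytosines of mammalian DNA carry 5-methylcytosine (5mC), which TET enzymes oxidise to 5-hydroxymethylcytosine (5hmC), an intermediate of active demethylation as well as a mark that can persist. In BS-seq both marks remain C, so what stays unconverted is the sum of 5mC and 5hmC. Unmodified cytosine is read as T, and so are the further oxidation products 5-formylcytosine and 5-carboxylcytosine, which the converted share therefore includes. In oxBS-seq 5hmC is first oxidised and then read as T, so the unconverted share is 5mC, and BS minus oxBS is an estimate of 5hmC.

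The interval spans chr2:9781277-9781523 of mm9 (NCBIM37) and is shown as the forward strand. Gata3 (ENSMUSG00000015619.9) extends from 9778705 to 9811661 and is transcribed from the reverse strand. The whole interval is printed because the spacing of its CpGs and the stretch before them without cytosine on this strand set what could be measured. The 5 CpGs are in capitals.
Gata3 interval: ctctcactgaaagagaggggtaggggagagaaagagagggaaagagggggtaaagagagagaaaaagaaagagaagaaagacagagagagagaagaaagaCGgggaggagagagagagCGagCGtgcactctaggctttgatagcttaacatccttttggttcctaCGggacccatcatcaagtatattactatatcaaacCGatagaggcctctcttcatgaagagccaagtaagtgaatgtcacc

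All 38 covered cytosines are on the forward strand, 5 in CpGs and 33 in other contexts. The CpG cytosines are at positions 9781377, 9781395, 9781399, 9781443 and 9781478 of chromosome 2 and are called CpG 1 to CpG 5 in this order. CpG 2 lies 18 bases after CpG 1 and CpG 3 only 4 bases after CpG 2, whereas CpG 4 and CpG 5 follow at distances of 44 and 35 bases. The intron runs from 9780282 to 9784721, between exons 5 and 6 of the transcript Gata3-001. The interval is 995 bp from exon 6 and 18704 bp from the transcript start, and it overlaps no exon. It is poor in CpGs, with 0.428 of the number that its base composition would give. A stretch of 74 bases from 9781284 to 9781357 holds no C on the forward strand and is 95.9% purine (38 A, 33 G and 3 T), so that it gives no value.

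The interval was searched on both strands for 4 listed sequences that T-cell transcription factors bind, and then for 2 more chosen after the sequence was seen. The E-box forms CACGTG and CAGCTG, an extended GATA sequence, AGATAA, and the RUNX core TGTGGT gave 0 matches, and they occur in 2.47%, 9.25%, 15.8% and 17.1% of windows of this length on chromosome 2. Other extended GATA forms were not searched. The core GATA occurs 3 times, from bases 140, 194 and 203 of the interval, and is present in 75.0% of windows. The match from base 140 reads TGATAG with the base on either side, and the match from base 203 begins at the G of CpG 5. The sequence CTTTGAT, which TCF1 and LEF1 can bind, occurs once and is found in 4.93% of windows, and it overlaps the GATA match from base 140.

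Reads per CpG cytosine ranged from 313 to 6652, which gives 95% Wilson intervals with widths to either side of 0.291 to 3.76 percentage points. BS library 1 of DP (1066 to 1187 reads) and of CD4 SP (399 to 473) and oxBS library 1 of DP (313 to 381) and of CD4 SP (476 to 541) were the shallow ones, together with DP oxBS library 3 (865 to 1060). The unconverted share of the 33 non-CpG cytosines, the background of incomplete conversion, was 0.183% to 0.298% per library. The lambda phage control with the highest share, taken as the 5mC control, was read as 99.3% to 99.5% unconverted. The lambda control taken as 5hmC was read at 5.51% to 6.92% in BS libraries, with 5.81% to 6.54% in DP and 5.69% to 6.92% in CD4 SP. In oxBS libraries 1 to 3 it was read at 0.647%, 0.652% and 0.846% in DP and at 1.50%, 1.15% and 1.15% in CD4 SP. Every CD4 SP oxBS library thus lay above every DP one. The study describes that control as impure, and no oxidation efficiency was taken from its reads here.

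**Figure D1:**
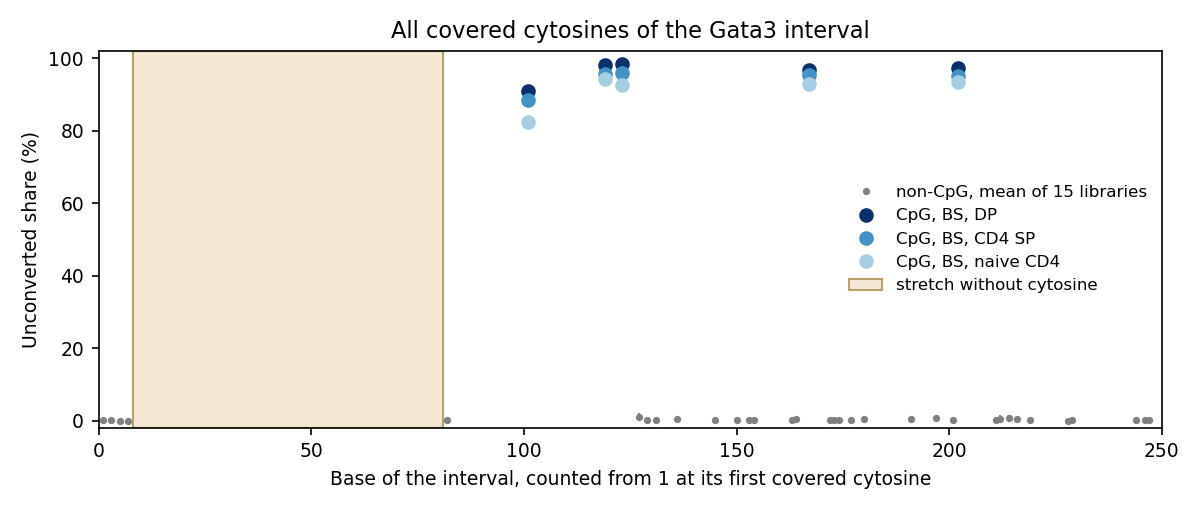
Unconverted share (%) of every covered cytosine of the Gata3 interval against its base in the interval. Blue points are BS means of 3 libraries at the 5 CpGs in DP, CD4 SP and naive CD4 cells, between 82.5% and 98.4%. Grey points are means of 15 libraries at non-CpG cytosines with their range, the means all at or below 1.09%. The shaded stretch holds no cytosine on the forward strand, on which all covered cytosines lie.

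High shares were thus read at the 5 CpGs and at none of the 33 non-CpG cytosines. The non-CpG cytosine with the highest mean lies at base 127 of the interval, 4 bases past CpG 3, with 1.09% (0.337% to 2.11% over 15 libraries). Among the CpGs, CpG 1 had the lowest share in 15 of 15 libraries of either assay. CpG 2 was highest in 4 libraries, CpG 3 in 5, CpG 4 in 1 and CpG 5 in 5, so that the order above CpG 1 was not fixed.

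The first comparison asks how the sum of 5mC and 5hmC at these CpGs changes over the 3 stages. It was high at every stage, the mean was lower at each step, and the converted share rose 2.38 times between DP and naive CD4. Averaged over the 5 CpGs, the BS share was 96.4%, 96.1% and 96.2% in DP libraries 1 to 3. It was 94.9%, 93.6% and 93.6% in CD4 SP libraries, and 92.0%, 90.4% and 90.9% in naive CD4 libraries. All DP libraries lay above all CD4 SP libraries, and these above all naive CD4 libraries. The group means were 96.3% ± 0.127, 94.0% ± 0.751 and 91.1% ± 0.833 (SD, n = 3 each). Naive CD4 minus DP was -5.16 ± 0.487 points (SE), with an exact permutation p of 0.10 between these stages alone. Over all 3 stages the two-sided exact permutation test on the F statistic gave p = 0.00357, the smallest of 1680 arrangements. With Benjamini-Hochberg adjustment over the 4 tests of the mean of the 5 CpGs that p was 0.0143. CD4 SP minus DP was -2.23 ± 0.440 points and naive CD4 minus CD4 SP was -2.93 ± 0.648 points, each with an exact permutation p of 0.10, the smallest that 3 against 3 libraries allow. Within libraries numbered 1, 2 and 3 the difference of naive CD4 from DP was -4.38, -5.76 and -5.32 points. Without library 1 of every stage, whose BS libraries cover lambda positions that the others lack, it was -5.54 points. The exact permutation F test over the 3 stages then gave p = 0.0667, the smallest that 2 libraries per stage allow.

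Each of the 5 CpGs passed the test across stages (exact permutation F test, adjusted p = 0.0125 at CpG 1, 0.00893 at CpG 4 and 0.00472 at the others, Benjamini-Hochberg over 70 cytosines). Of all 70 CpG cytosines tested 91.4% passed, so a count of 5 of 5 does not set Gata3 apart. With the replicate number as a block across stages CpG 4 did not pass (adjusted exact permutation p = 0.0617) and the other 4 did. DP lay above naive CD4 without overlap at 5 of 5 CpGs, against 88.6% of all cytosines, and CD4 SP above naive CD4 at 5 of 5, against 90%. DP lay above CD4 SP without overlap at 3 of 5 (CpG 2, CpG 3 and CpG 5), against 72.9% of all cytosines.

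CpG 1, the first CpG after the purine stretch, had the largest mean fall in BS share of the 5. Its BS share was 91.9%, 90.7% and 90.3% in DP libraries, 90.7%, 87.5% and 87.4% in CD4 SP libraries, and 85.4%, 81.4% and 80.7% in naive CD4 libraries. DP and CD4 SP overlapped, since CD4 SP library 1 (472 reads) read as high as the DP libraries, while naive CD4 lay below both. The mean fell from 90.9% to 82.5%, a difference of -8.45 ± 1.54 points (SE), of which -6.06 points came between CD4 SP and naive CD4.

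CpG 2 and CpG 3, 4 bases apart, had nearly the same share in DP, and CpG 3 read lower in naive CD4 cells. The BS share of CpG 2 was 97.8%, 98.0% and 98.2% in DP libraries, 96.0%, 95.3% and 95.1% in CD4 SP libraries, then 94.3%, 93.9% and 94.6% in naive CD4 ones. That of CpG 3 was 98.5%, 98.1% and 98.6%, then 96.2%, 95.9% and 95.8%, and then 92.5%, 91.5% and 93.6%. At both the 3 stages did not overlap. CpG 2 changed by -2.51 points between DP and CD4 SP and by -1.22 points afterwards, whereas CpG 3 changed by -2.42 and -3.44 points, and all naive CD4 libraries read lower at CpG 3 than at CpG 2. The converted share at CpG 3 rose from 1.62% to 7.48%, which is 4.62 times and the largest ratio of the 5.

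CpG 4 and CpG 5 changed by similar amounts between DP and naive CD4 cells, -3.81 and -3.92 points. The BS share of CpG 4 was 95.8%, 97.3% and 96.8% in DP libraries, 96.7%, 94.5% and 94.5% in CD4 SP libraries, then 93.6%, 92.6% and 92.3% in naive CD4 ones. CD4 SP library 1 lay within the DP range there, and the other two CD4 SP libraries lay below it. The BS share of CpG 5, whose G opens a GATA sequence, was 97.9%, 96.7% and 97.3%, then 95.0%, 94.6% and 95.3%, and then 94.3%, 92.5% and 93.4%. The stages did not overlap at CpG 5, although CD4 SP and naive CD4 were only 0.326 points apart at their nearest libraries.

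Whether the CpGs differed from each other across the 3 stages was tested for all 10 pairs, a comparison chosen after the values were seen. Points are given for the naive CD4 minus DP change, whereas each p is from an exact permutation F test over the 3 stages. The change of CpG 1 minus that of CpG 2, CpG 4 and CpG 5 was -4.72, -4.64 and -4.54 points (exact permutation F test, unadjusted p = 0.0286, 0.0179 and 0.0321). The change of CpG 2 minus that of CpG 3 was 2.12 points (exact permutation F test, unadjusted p = 0.0286) and that of CpG 3 minus that of CpG 5 was -1.94 points (0.0214). With Benjamini-Hochberg adjustment over the 10 pairs the smallest exact permutation p was 0.0643, so 0 of 10 passed.

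**Figure D2:**
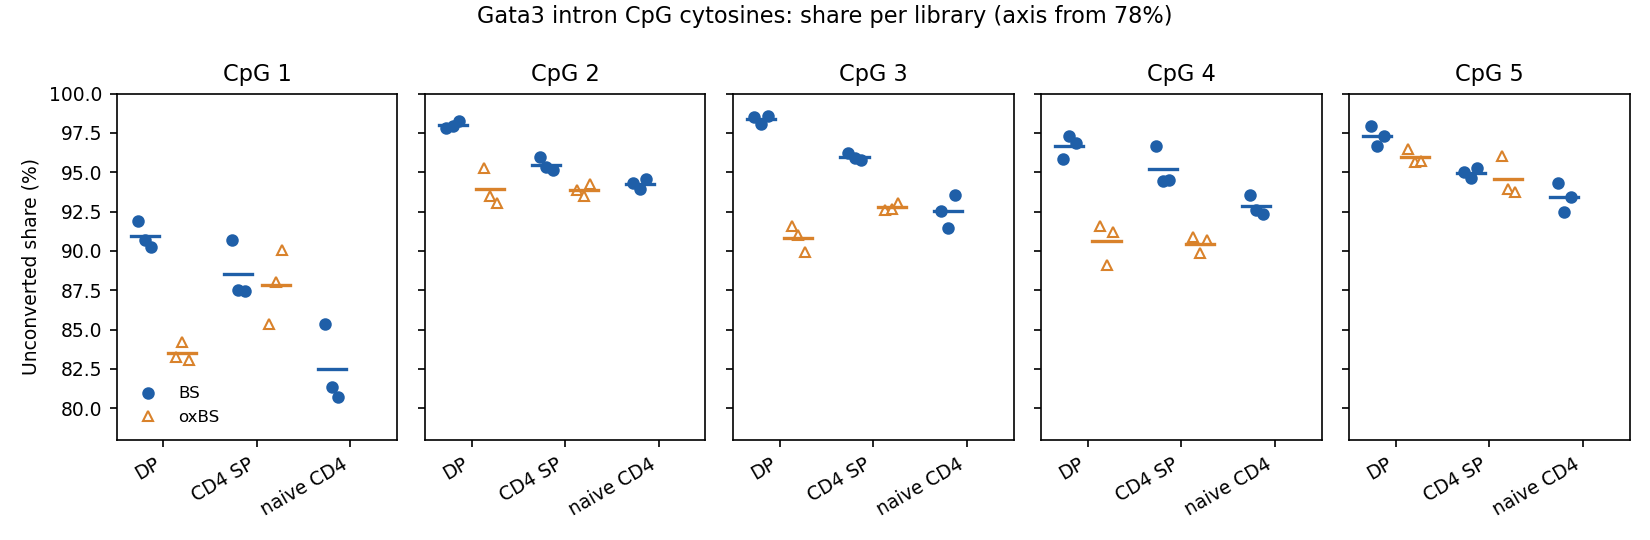
Unconverted share (%) of each Gata3 CpG by stage, on an axis that does not start at 0. Filled circles are BS libraries, open triangles oxBS libraries and lines their means, and BS falls from DP to naive CD4 in every panel while oxBS in DP lies below BS in every panel.

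The second comparison asks how much of this is 5mC in the thymus. The oxBS share of the 5 CpGs was 91.6%, 90.7% and 90.6% in DP libraries 1 to 3 and 91.7%, 91.6% and 92.4% in CD4 SP libraries. The lowest CD4 SP library lay just below the highest DP library, so the stages overlapped slightly. The means were 91.0% ± 0.580 and 91.9% ± 0.403 (SD, n = 3 each), a difference of 0.926 ± 0.408 points (SE) with an exact permutation p of 0.20, also 0.20 after adjustment over the 4 tests. The mean oxBS share thus read no lower in CD4 SP, whereas BS changed by -2.23 points between these stages. An oxBS share equals 5mC only where oxidation is complete, and the lambda control taken as 5hmC read higher in CD4 SP than in DP oxBS libraries. How far this moved the oxBS shares or BS minus oxBS was not tested. Libraries 2 and 3 of CD4 SP oxBS agreed within sampling noise over all 70 CpG cytosines (chi-square test, p = 0.520) but differed at the 5 Gata3 CpGs (p = 0.00747). They were kept as separate samples, and counted as 1 they gave a difference of 0.888 points.

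By CpG, the mean oxBS share read higher in CD4 SP than in DP at CpG 1 and CpG 3, lower at CpG 5 and nearly the same at the others. The oxBS share of CpG 1 was 83.3%, 84.2% and 83.1% in DP and 85.4%, 88.0% and 90.1% in CD4 SP libraries, a difference of 4.31 ± 1.40 points (SE). That of CpG 3 was 91.6%, 91.0% and 89.9% in DP and 92.6%, 92.7% and 93.0% in CD4 SP libraries, a difference of 1.92 ± 0.517 points. CD4 SP lay above DP without overlap at these 2 of 5 CpGs, against 18.8% of all cytosines, and at each the exact permutation p was 0.10, the smallest possible. CpG 2 (95.3%, 93.5% and 93.0% in DP, 93.9%, 93.5% and 94.2% in CD4 SP) and CpG 4 (91.6%, 89.1% and 91.2%, then 90.9%, 89.8% and 90.7%) differed by -0.0474 and -0.170 points, well inside their spread. CpG 5 (96.5%, 95.6% and 95.7%, then 96.0%, 93.9% and 93.8%) differed by -1.38 ± 0.768 points, with overlapping stages.

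The third comparison asks whether 5hmC was present and whether its level changed between DP and CD4 SP. BS exceeded oxBS in all 6 pairs of libraries that share a stage and a number, by 4.75, 5.44 and 5.66 points in DP and by 3.15, 1.97 and 1.27 points in CD4 SP. Every DP pair lay above every CD4 SP pair. The mean over 6 pairs was 3.71 points, and a two-sided exact sign-flip permutation test returned a p of 0.031, the least that 6 pairs allow, or 0.0625 after adjustment over the 4 tests. The stage means were 5.28 ± 0.477 points in DP and 2.13 ± 0.949 in CD4 SP (SD, n = 3 each). The difference of -3.15 ± 0.613 points (SE) had an exact permutation p of 0.10, the smallest possible, and 0.133 after adjustment. BS library 2 and oxBS library 1 of each stage both cover chromosome 6, so the covered intervals do not follow the numbers. Taken between these libraries, BS minus oxBS was 4.50 points in DP and 1.82 in CD4 SP, and with BS library 3 set against oxBS libraries 2 and 3, averaged, 5.61 in DP and 1.65 in CD4 SP.

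By CpG, the difference was largest in DP at CpG 3 and CpG 1 and smallest at CpG 5. At CpG 3 BS minus oxBS was 6.88, 7.04 and 8.68 points in DP and 3.59, 3.24 and 2.75 in CD4 SP. At CpG 1 it was 8.59, 6.48 and 7.19 points in DP and 5.31, -0.543 and -2.62 in CD4 SP, where oxBS read higher than BS in 2 of 3 pairs. A negative value is no amount of 5hmC, and at CpG 1 the CD4 SP pairs spread over 7.93 points. CpG 2 gave 2.56, 4.45 and 5.23 points in DP and 2.09, 1.85 and 0.896 in CD4 SP. CpG 4 gave 4.27, 8.20 and 5.61 points in DP and 5.80, 4.62 and 3.82 in CD4 SP. CpG 4 was thus the CpG that read highest in CD4 SP, and its stages overlapped. CpG 5 gave 1.45, 1.04 and 1.61 points in DP and -1.02, 0.681 and 1.53 in CD4 SP, close to 0 in both stages.

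BS exceeded oxBS in all DP pairs at 5 of 5 CpGs, against 84.1% of all cytosines, and in all CD4 SP pairs at 3 of 5 (CpG 2, CpG 3 and CpG 4), against 63.8%. All DP pairs lay above all CD4 SP pairs at 3 of 5 CpGs (CpG 1, CpG 2 and CpG 3), against 55.1%. Over the 6 pairs CpG 2, CpG 3 and CpG 4 passed with means of 2.84, 5.36 and 5.39 points (exact sign-flip permutation test, adjusted p = 0.0490 each, Benjamini-Hochberg over 69 cytosines), and 58% of all cytosines passed with BS above oxBS. CpG 1 had a mean of 4.07 points (4 of 6 pairs above 0, adjusted exact permutation p = 0.169) and CpG 5 of 0.881 points (5 of 6, 0.132). The 3 calls depend on the share of tested cytosines at the smallest p, which was 44 of 69. With a coverage minimum of 100 reads 54 cytosines remained, 12 of the 15 dropped had been at that p, the smallest adjusted exact permutation p was 0.0527 and 0 CpGs passed, although 32 of the 54 had an unadjusted p under 0.05.

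Between CpGs, BS minus oxBS at CpG 5 was lower than at CpG 3 by 4.48 points and lower than at CpG 4 by 4.51 points, each in 6 of 6 pairs. CpG 2 minus its neighbour CpG 3 was -2.52 points and CpG 2 minus CpG 4 was -2.54 points, both below 0 in 6 of 6 pairs. Each of these 4 comparisons had an exact sign-flip permutation p of 0.031, the smallest possible, and 0.0781 after adjustment over the 10 pairs of CpGs, so 0 of 10 passed. These comparisons were also chosen after the values were seen.

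**Figure D3:**
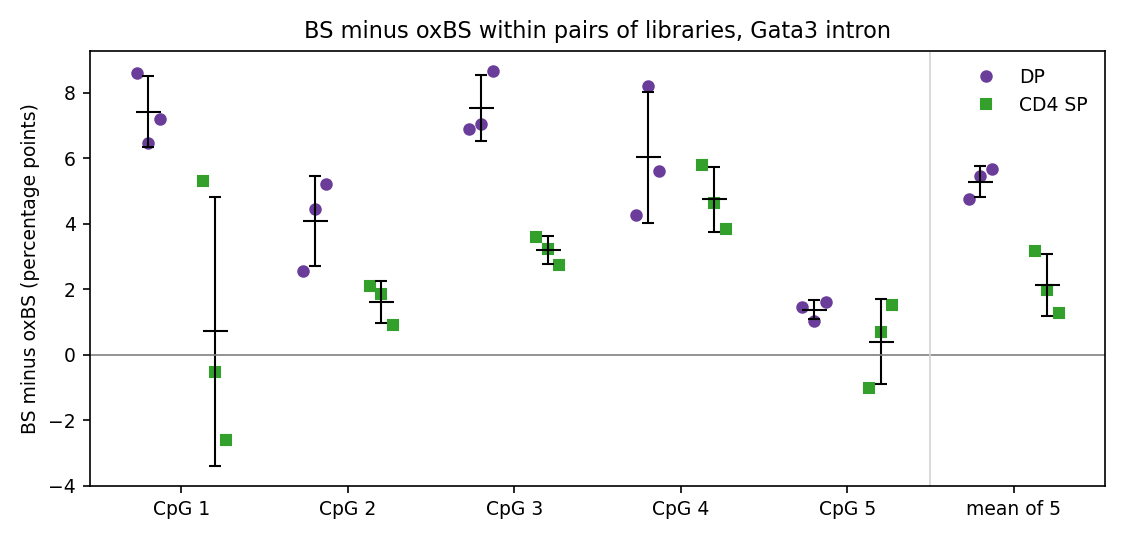
BS minus oxBS (percentage points) in pairs of libraries with the same stage and number, for each Gata3 CpG and for their mean. Circles are DP pairs, squares CD4 SP pairs, and black bars the mean and SD of 3 pairs. For the mean of the 5 CpGs the DP pairs lie between 4.75 and 5.66 points and the CD4 SP pairs between 1.27 and 3.15.

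A hierarchical Dirichlet-binomial model of the BS and oxBS reads, with the oxidation efficiency set to 0.9, gave 5hmC estimates that cannot be negative. The study instead estimated the efficiency of each library together with the levels. These were 6.24% in DP and 1.22% in CD4 SP at CpG 1, 6.22% and 2.67% at CpG 3, and 4.78% and 3.83% at CpG 4. They were 3.18% and 1.62% at CpG 2 and 1.45% and 1.26% at CpG 5. The estimate was thus lower in CD4 SP at each CpG, with 5mC from 87.1% to 96.7% in DP and from 90.7% to 95.7% in CD4 SP. The Bayes factor for a difference between the stages was 0.00297 to 0.0371, below the calling limit of 1 at 5 of 5 CpGs. Values below 1 mean that under this model the reads gave more weight to no difference than to a difference.

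The Gata3 CpGs were last set beside the loci read in the same libraries, Prkcq (17 CpG cytosines), Il6ra (12), Zbtb7b (28) and Pax5 (8), the last added after its values were seen. Prkcq encodes protein kinase C theta of T-cell receptor signalling, Il6ra the interleukin 6 receptor Zbtb7b the CD4 lineage factor ThPOK and Pax5 a B-cell transcription factor. In percentage points the BS share fell less at Gata3 than at the first 3, but not less than at Pax5. The loci began at different BS shares in DP (96.3% at Gata3), and ratios of their converted shares were not compared. Between DP and naive CD4 the BS share changed by -5.16 points at Gata3, by -12.7 at Zbtb7b (from 88.3% to 75.6%), by -54.4 at Prkcq (87.7% to 33.3%) and by -82.0 at Il6ra (94.9% to 12.8%). The change at Gata3 was smaller by 7.53, 49.3 and 76.9 points, and each difference passed (exact permutation F test on the difference within libraries, adjusted p = 0.00357 over 3 loci and 0.00476 with Pax5 added). Pax5 read at 86.1% ± 1.39 in DP, then at 87.8% ± 1.38 in CD4 SP, and at 88.2% ± 1.40 in naive CD4 cells (SD, n = 3 each). Its change of 2.12 points went the other way, and that of Gata3 minus it was -7.27 points (exact permutation F test, adjusted p = 0.0143 over 4 loci).

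BS minus oxBS at Gata3 differed from that at Zbtb7b (5.45 points in DP and 3.99 in CD4 SP) by a mean of -1.01 points, below 0 in 5 of 6 pairs, which did not pass (adjusted exact permutation p = 0.188). It was lower than at Prkcq (24.5 and 11.2 points) in 6 of 6 pairs, with a mean difference of -14.1 points with each CpG weighted equally and -2.90 points with reads pooled over CpGs (adjusted exact permutation p = 0.0938 in both, which did not pass). Prkcq, Zbtb7b and Il6ra were read on both strands, whereas the Gata3 cytosines are all on the forward strand. At adjacent positions of Prkcq the first, on the forward strand, gave means of 1.72 to 8.08 points and the second 11.4 to 40.3. The loci were not compared by strand. At Il6ra BS exceeded oxBS by 20.6 points in DP, but in CD4 SP oxBS exceeded BS, with BS minus oxBS at -15.2 ± 1.78 points (SD, n = 3). In these CD4 SP libraries oxBS also exceeded BS in 2 of 3 pairs at CpG 1 of Gata3. At Pax5 mean oxBS exceeded mean BS in both stages, with BS minus oxBS at -2.79 ± 1.97 points in DP and -7.78 ± 2.22 in CD4 SP (7 CpG cytosines). Gata3 lay above Pax5 in 6 of 6 pairs, by a mean of 8.99 points (adjusted exact permutation p = 0.0625 over 4 loci, also for Prkcq). BS minus oxBS was thus lower in CD4 SP than in DP at Gata3 and at each of the other loci, and what part this has in the difference at Gata3 was not tested.

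**Figure D4:**
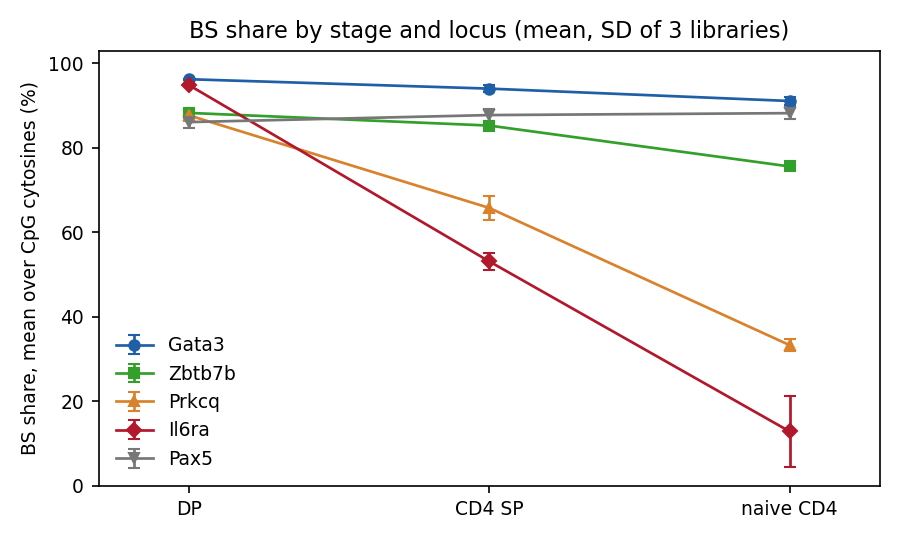
BS share (%, mean over the CpG cytosines of a locus) in DP, CD4 SP and naive CD4 cells at Gata3, Zbtb7b, Prkcq, Il6ra and Pax5. Points are means of 3 libraries and bars their SD, and Gata3 falls to 91.1%, Il6ra falls to 12.8% and Pax5 ends at 88.2%.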

How the data were processed

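The authors divided the DNA of each sample, oxidised one portion with KRuO4, treated both with bisulfite, amplified chosen regions and aligned read pairs with Bismark 0.7.12 and Bowtie 2 to mm9 and lambda DNA. The deposited files give for each cytosine the percent unconverted and the counts of unconverted and converted reads, with a cutoff of 10 reads by the authors, and neither is normalized. The deposited percent was recomputed from the counts. Library totals were 3450894 to 8602209 read-outs. Reads carry no molecular identifiers, so intervals cover counting error only.

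Members, lists and tests were chosen with earlier results of these data known. All CpG cytosines of the interval were named, whatever their values. Each CpG was weighted equally. BS and oxBS libraries of the same stage and number were paired because the labels describe DNA divided between both treatments, and that equal numbers mark one DNA sample was assumed. Annotation was GENCODE vM1. Exact permutation tests were two-sided and run in Python 3.11.15 with NumPy 2.4.6 and SciPy 1.17.1, with calls at an adjusted p under 0.05. The procedures were tested on simulated data with larger changes than those at Gata3, which cannot show how they perform at changes of this size. Alternatives were a coverage minimum of 100, pooled reads, conversion correction, an oxidation efficiency of 0.9, a quasi-binomial model (statsmodels 0.14.6), a chi-square test, a replicate block and leaving out each replicate. Replicate numbers were not taken to pair all 3 stages, since the deviations of libraries with the same number correlated at only 0.00284 for number 2 between DP and CD4 SP BS. The other comparisons between stages (DP with naive CD4 BS, CD4 SP with naive CD4 BS, and oxBS) had correlations of 0.162 to 0.317 for every number. Between BS and oxBS of the same stage they were 0.0505, 0.236 and 0.164 in DP and 0.283, 0.384 and -0.235 in CD4 SP for numbers 1 to 3. The assumed pairing of BS and oxBS was therefore not borne out for every number.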

Additional observations from a re-analysis of the deposited data

Results flagged for a closer look

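The difference in BS minus oxBS between Gata3 and Il6ra had opposite signs in DP and CD4 SP, in every pair of libraries. Gata3 minus Il6ra was -15.3 points in DP (from -17.2 to -11.9) and 17.3 points in CD4 SP (from 16.3 to 18.2). The difference between the stages was not tested.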

How the results depend on the processing

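The naive CD4 minus DP difference in BS share was -4.79 to -5.61 points when each replicate was left out (exact permutation p from 0.00357 to 0.00714), and -5.54 points without library 1 of every stage (exact permutation p = 0.0667, the smallest possible). BS minus oxBS over the remaining 5 pairs was 3.32 to 4.20 points, with an exact permutation p of 0.0625 each, the smallest 5 pairs allow, and for the same reason calls per CpG were not made with a pair left out. A coverage minimum of 100 reads left 0 calls of BS minus oxBS over all loci and 0 at Gata3, against 40 and 3, since a smaller share of the cytosines tested was at the smallest p (32 of 54 against 44 of 69). The difference in BS minus oxBS between Gata3 and Il6ra, 1.03 points, averages DP pairs from -17.2 to -11.9 with CD4 SP pairs from 16.3 to 18.2. It was from -2.42 to 4.67 with each pair left out. Leaving out a CD4 SP pair removes a value above 0, and it was then below 0, at -2.03 (pair 1), -2.42 (pair 2) or -2.26 (pair 3). With pooled reads it was -1.53, and the cause of that was not tested. A replicate block across stages, chosen after the data were seen for single CpGs, left the naive CD4 minus DP difference in BS share at -5.16 points. The exact permutation F test over the 3 stages with that block gave p = 0.0278, the smallest possible. With the block 4 of 5 Gata3 CpGs passed, with CpG 4 at an adjusted exact permutation p of 0.0617. Without the pairing of BS and oxBS numbers 43 cytosines were called, 3 of them at Gata3. Calls across stages were 49 to 67 in the alternatives, 49 of them out of the 49 cytosines left at the coverage minimum of 100. With 3 libraries per stage no pair of stages could reach an exact permutation p below 0.10, and depth limits single CpGs most in oxBS library 1 of DP. Leaving out library 1 of every stage, pairing by covered intervals, counting libraries 2 and 3 as 1 and the alternatives for pairs of stages were chosen after the data were seen.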
